A study of Mus musculus with 8 samples.

Results

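AP-1 and the immediate early transcription factors were examined in fibroblasts that had been given media from cardiomyocytes. The genes were Fos, Fosb, Fosl1, Fosl2, Jun, Junb, Jund, Atf3, Egr1 and Ier3, taken by gene symbol, and the array had 1 probe for each of 9 of these 10 genes among its 25697 probes and 16590 named genes. Fosl2 had no probe in the table used here. The cells were NIH 3T3, an established mouse embryonic fibroblast line, and each array measured total RNA after 24 h in 1 of 3 media.

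The groups were the supernatant (2 arrays), cardiomyocyte media (3 arrays) and unused media (3 arrays). Cardiomyocyte media were Claycomb media that had been kept for 24 h on HL-1 cells, a beating cell line from an atrial tumour of the mouse, before being moved to the fibroblasts. The supernatant was what remained of such media after ultracentrifugation for 2 h, which pellets microvesicles and exosomes. Slower spins had first cleared debris from it, so it differs from cardiomyocyte media by more than the ultracentrifuged pellet. Unused media were Claycomb media that had not been on cells. No group held unused media that had been centrifuged, and no group held fibroblasts in their own growth media. The methods give 3 wells for RNA without stating if these were separate experiments, and all p-values therefore reflect array-to-array spread that may be technical. In RNA of a whole well, fewer cells that express a gene and less RNA of it per cell cannot be told apart.

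AP-1 is a dimer of leucine zipper proteins. A Jun protein pairs with another Jun protein, with a Fos protein or with a relative such as Atf3, and the dimer binds the AP-1 site TGACTCA or the related cyclic AMP response element TGACGTCA. In fibroblasts, Fos, Fosb, Junb, Egr1 and Ier3 are classical immediate early genes: serum and growth factors raise their transcripts within minutes through MAP kinases, without new protein synthesis, and the transcripts then decay within hours. Fosl1, which encodes Fra-1, comes up later and is itself a target of AP-1 and ERK signalling. The only time measured here was 24 h, so the early wave was outside the measurement.

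Upstream sequences are shown for Junb and Fos, which differed between supernatant and cardiomyocyte media, and for Jun, their partner, which passed no test. Of the 10 genes, 8 had a window in the RefSeq promoter table (GRCm38.p6). Fosl1 and Egr1 had none and could not be searched. Each line gives the 250 bases before the annotated start, 5′ to 3′ on the strand of the gene, with matches to the searched motifs in capitals.
Junb, chr8:84978749-84978998, minus strand: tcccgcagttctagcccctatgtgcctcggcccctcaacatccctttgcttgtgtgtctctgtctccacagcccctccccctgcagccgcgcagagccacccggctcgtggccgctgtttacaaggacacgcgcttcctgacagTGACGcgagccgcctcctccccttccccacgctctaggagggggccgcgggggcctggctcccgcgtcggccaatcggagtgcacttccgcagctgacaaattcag
Fos, chr12:85473640-85473889, plus strand: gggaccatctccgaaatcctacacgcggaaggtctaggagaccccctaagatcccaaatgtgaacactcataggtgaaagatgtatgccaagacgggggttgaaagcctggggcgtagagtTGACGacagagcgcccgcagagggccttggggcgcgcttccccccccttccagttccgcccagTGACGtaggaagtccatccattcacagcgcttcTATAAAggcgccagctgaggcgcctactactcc
Jun, chr4:95052223-95052472, minus strand: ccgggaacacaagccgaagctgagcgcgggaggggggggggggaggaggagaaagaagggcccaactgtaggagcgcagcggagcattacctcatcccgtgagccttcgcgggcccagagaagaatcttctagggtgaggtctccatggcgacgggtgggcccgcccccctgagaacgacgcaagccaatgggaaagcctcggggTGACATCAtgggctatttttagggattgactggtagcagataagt
Both strands were searched for TGACTCA, TGACGTCA, TGACATCA (the form of the AP-1 site known from Jun itself), TGACG (the core of the cyclic AMP response element, contained in TGACGTCA), GCGNGGGCG (bound by Egr proteins), TATAAA and the CArG box of serum response factor. TGACG occurred 2 times in the Fos window and 1 time in the Junb window, and 17.8% of 32851 windows of this length held it. The Fos window also held TATAAA, found in 12.4% of windows. TGACATCA occurred 1 time in the Jun window and in 2.93% of all windows. TGACTCA, TGACGTCA, GCGNGGGCG and the CArG box, found in 4.46%, 1.55%, 4.7% and 1.47% of all windows, had no match in these 3 windows. Bases farther upstream than these 250 were not searched, so a site there would have been missed.

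Signal is given below as the intensity after background correction and normalization, in fluorescence units on a linear scale. A probe's signal depends on its sequence, so levels were compared between groups and not between genes. A probe was called detected on an array where its detection p-value was under 0.05. Junb, Jun, Fos, Fosl1, Egr1 and Ier3 were detected on all 8 arrays. Jund was detected on 6 of 8 arrays, with 2 of 2 in supernatant, 2 of 3 in cardiomyocyte media and 2 of 3 in unused media. Fosb and Atf3 were detected on 0 of 8 arrays and were not tested. The signals of Fosb lay between 5.09 and 14.7 and those of Atf3 between 4.64 and 15.2, which gives no level for either gene. The 7 remaining genes were tested among 8885 genes.

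**Figure D1:**
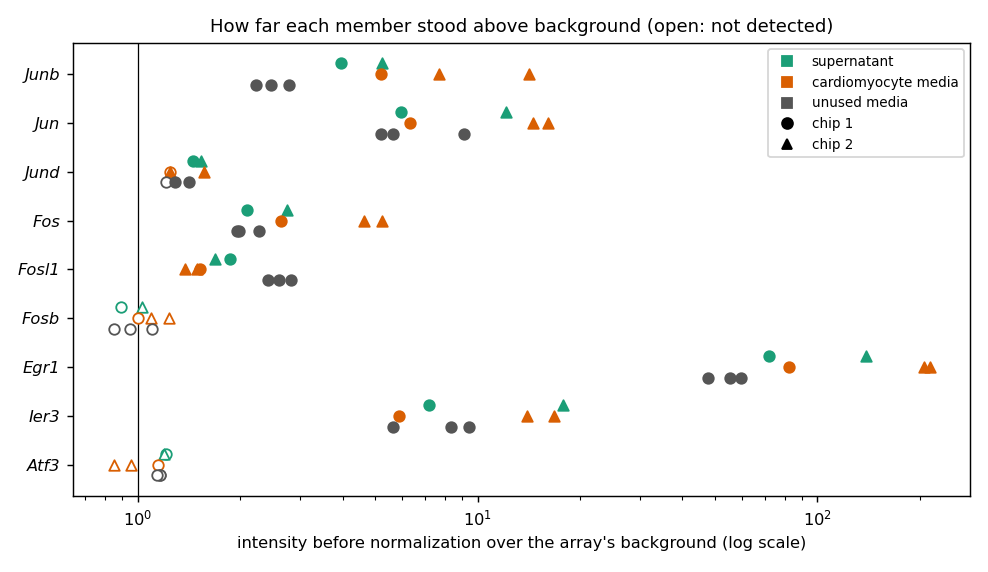
Intensity of each member before normalization, divided by the background of its array, on a log axis. Each point is 1 array, coloured by group, with circles for chip 1 and triangles for chip 2 and open symbols where the probe was not detected. All points of Fosb and Atf3 are open, and those of Fosl1 in cardiomyocyte media sit at 1.37 to 1.52 times the background.

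Of the 2 chips, chip 2 carried replicate 2 of the supernatant and replicates 2 and 3 of cardiomyocyte media, and chip 1 carried the other 5 arrays. Background intensity ranged from 88.9 to 93.1 (chip 1) and from 47.0 to 48.1 (chip 2), and 10545 to 11758 probes were detected per array. On replicate 3 of unused media the bead standard error was larger, with a median over the members of 8.33% of the intensity against 4.44% to 5.30% on the other arrays. Fold changes are also given from a fit with a chip term and from the arrays of chip 1 alone, where supernatant and cardiomyocyte media have 1 array each whose spread is assumed to be that of unused media. Values from chip 2 alone rest on 1 array of supernatant and 2 of cardiomyocyte media, so that the spread of the lone array is again assumed and only 1 residual degree of freedom is left. Of the 14 fibroblast markers with a probe, 12 to 14 were detected per array, Col1a1, Vim and Dcn on all 8. Of the 21 cardiomyocyte markers with a probe, 4 to 6 were detected per array. Myl4 (signal 107 to 248) and Tnnc1 (42.6 to 118) were detected on 8 arrays and Nkx2-5 and Des on 7, while Myl2, Myl3, Actn2, Tnni3, Ryr2, Mybpc3, Actc1, Ttn, Pln, Sln and Nppb were detected on 0 arrays. The summed signal of the cardiomyocyte markers was 398 to 415 in supernatant, 423 to 510 in cardiomyocyte media and 427 to 675 in unused media, and 0 of the 8 tested passed with limma in any comparison (at an unadjusted p under 0.05, 1 was higher in cardiomyocyte media than in unused media and 2 were lower in supernatant than in cardiomyocyte media). The summed signal of the fibroblast markers was 52457 to 62455 in supernatant, 64050 to 73915 in cardiomyocyte media and 47563 to 54840 in unused media. Of 13 tested fibroblast markers, Lum, Fap, Col3a1 and Col5a1 were higher in cardiomyocyte media than in unused media, where Fap was detected on 1 of 3 arrays. With a chip term Col5a1 did not pass (0.65, limma adjusted p = 0.0987), and Col1a1 (1.41, adjusted p = 0.0116) and Col1a2 (0.83, adjusted p = 0.0336) did. In supernatant, Col3a1 was higher and S100a4 lower than in unused media, and S100a4, Lum and Fap were lower than in cardiomyocyte media, with Vim also lower with a chip term (-0.85, adjusted p = 0.0436). The part of this in the results on AP-1 genes was not tested.

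The study was about hyaluronan and about signalling between cardiomyocytes and fibroblasts that leads to its synthesis. These arrays compared what fibroblasts express with cardiomyocyte media, before and after ultracentrifugation, and with unused media. With cardiomyocyte media, Junb and Egr1 were higher and Fosl1 was lower than with unused media. In the supernatant, Fosl1 was again lower than with unused media, and Junb and Fos were lower than with cardiomyocyte media. These calls in supernatant were lost under 9 of 24 (Fosl1), 7 of 25 (Junb) and 13 of 25 (Fos) alternative settings. The call of Egr1 was lost under 4 of 24. Jun, Jund and Ier3 passed in no comparison. Against unused media, 2 of the 7 tested members were higher and 1 was lower in cardiomyocyte media, where 4.03% of all tested genes were higher and 4.4% were lower (358 and 391 genes, or 369 and 111 with median scaling). In the supernatant, 0 members were higher and 1 was lower than in unused media, with 0.732% and 1.45% of all genes. Between supernatant and cardiomyocyte media, 0 members were higher in supernatant and 2 were lower, with 1.76% and 3.13% of all genes. At an unadjusted p under 0.05 in limma, 3 members were higher and 1 lower in cardiomyocyte media than in unused media, 1 was higher and 1 lower in supernatant than in unused media, and 0 were higher and 3 lower in supernatant than in cardiomyocyte media. At this threshold, 25.1%, 11.9% and 15.2% of all tested genes were called in the same order of comparisons, in either direction. The members and the comparisons were known from earlier results of these arrays, so these counts describe the genes chosen. The comparisons share arrays with each other and are not independent.

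**Figure D2:**
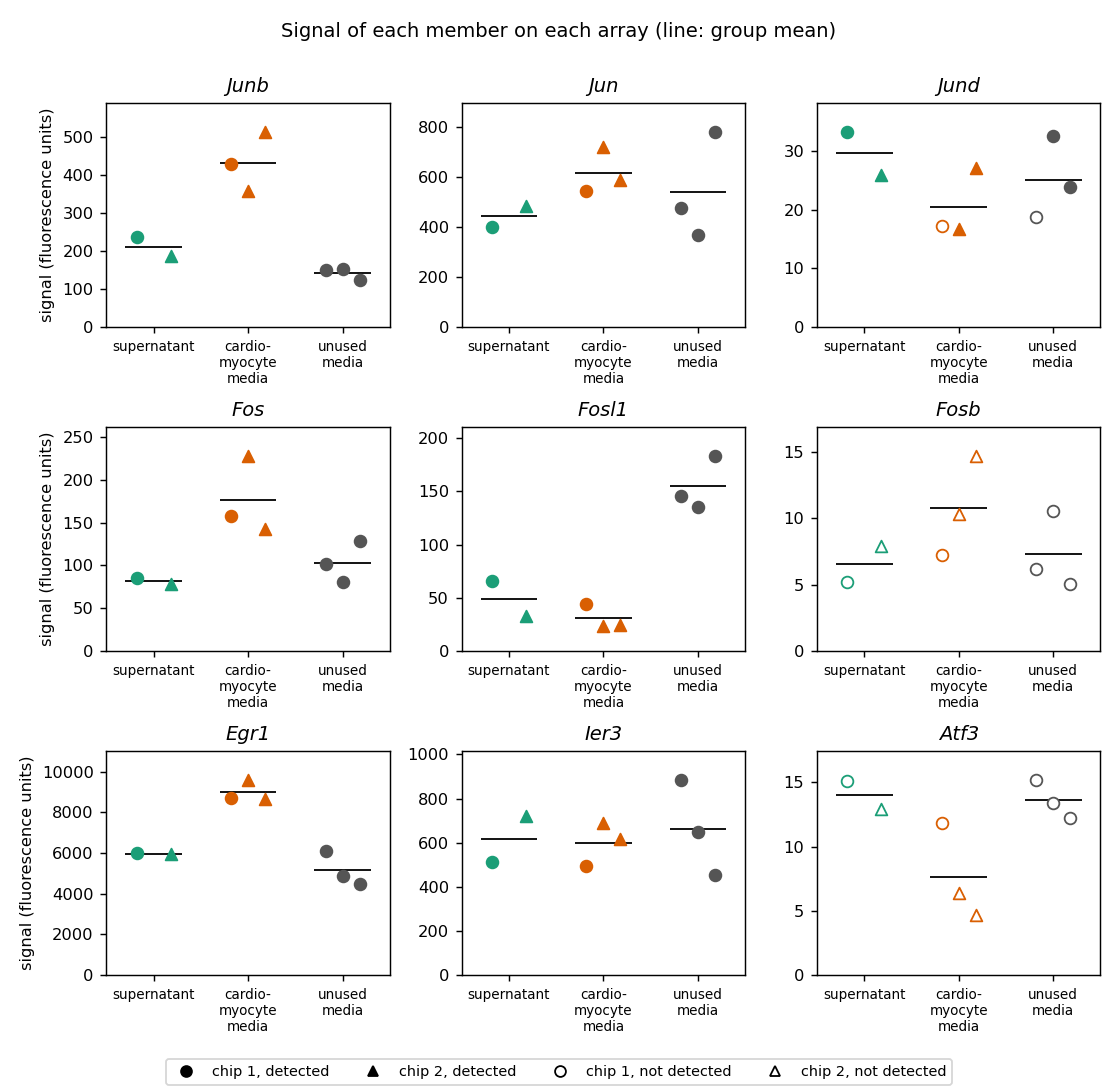
Signal of the 9 members with a probe on each of the 8 arrays, in supernatant, cardiomyocyte media and unused media, each panel on its own linear axis from 0. Points are arrays (circles chip 1, triangles chip 2, open where not detected) and lines are group means. The points of Junb and Egr1 in cardiomyocyte media lie above those of both other groups, and the points of Fosl1 in unused media, 135 to 183, lie above all others.

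Junb encodes a Jun protein that is a weaker activator than c-Jun and restrains c-Jun in many settings (chr8:84976909-84978748, GRCm38.p6). Its signal was 238 and 186 in supernatant, 428, 357 and 513 in cardiomyocyte media and 151, 152 and 124 in unused media. All arrays of cardiomyocyte media were above all arrays of the supernatant, and these were above all arrays of unused media. The means were 212 ± 36.7 in supernatant (SD, n = 2), 433 ± 77.8 in cardiomyocyte media (n = 3) and 142 ± 16.03 in unused media (n = 3). Cardiomyocyte media against unused media gave a log2 fold change of 1.496 (SE 0.19, 95% confidence interval 1.08 to 1.91, limma adjusted p = 5.70e-04). With a chip term it was 1.59 (adjusted p = 0.00159) and within chip 1 it was 1.48 (adjusted p = 0.0162), and it passed under all 24 alternatives run, at 1.22 to 1.76. Junb was lower in supernatant than in cardiomyocyte media, with a log2 fold change of -0.97 (SE 0.21, limma adjusted p = 0.0218). This was -0.996 with a chip term (adjusted p = 0.0118), -0.80 within chip 1 (adjusted p = 0.478) and -1.16 within chip 2 (adjusted p = 0.0480, with 1 array of supernatant). It did not pass without replicate 1 or 2 of the supernatant or replicate 3 of cardiomyocyte media, with an adjusted p of up to 0.218. Supernatant against unused media gave 0.52 (SE 0.21, 95% confidence interval 0.06 to 0.99), which did not pass over all genes (limma adjusted p = 0.366).

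Jun encodes c-Jun, the main activating partner of Fos proteins (chr4:95049036-95052222). Its signal was 399 and 484 in supernatant, 543, 720 and 586 in cardiomyocyte media and 477, 368 and 779 in unused media. The arrays of unused media spanned the range of both other groups, and the highest of them, replicate 3, had a bead standard error of 10.9% of its intensity. Jun passed in no comparison. The log2 fold change was 0.24 between cardiomyocyte and unused media (95% confidence interval -0.32 to 0.79) and -0.22 between supernatant and unused media (-0.84 to 0.40). Between supernatant and cardiomyocyte media it was -0.46 (-1.08 to 0.16, limma adjusted p = 0.522), although the arrays of the groups did not overlap.

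Jund encodes the Jun protein that is usually present in resting cells (chr8:70697739-70700616). Its signal was close to background, with 33.3 and 26.0 in supernatant, 17.3, 16.8 and 27.2 in cardiomyocyte media and 18.8, 32.5 and 23.8 in unused media. The groups overlapped in all 3 comparisons and none passed. The log2 fold change was -0.17 between cardiomyocyte and unused media (95% confidence interval -0.59 to 0.25), 0.16 between supernatant and unused media (-0.31 to 0.63) and 0.33 between supernatant and cardiomyocyte media (-0.14 to 0.80).

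Fos encodes c-Fos, which binds DNA as a dimer with a partner such as a Jun protein (chr12:85473890-85477274). Its signal was 84.8 and 78.8 in supernatant, 158, 228 and 142 in cardiomyocyte media and 101, 80.2 and 128 in unused media. The arrays of cardiomyocyte media were above all others, and those of the supernatant and unused media overlapped. The means were 81.8 ± 4.24 in supernatant (SD, n = 2), 176 ± 45.6 in cardiomyocyte media (n = 3) and 103 ± 23.96 in unused media (n = 3). Fos was lower in supernatant than in cardiomyocyte media, with a log2 fold change of -0.95 (SE 0.24, 95% confidence interval -1.47 to -0.42, limma adjusted p = 0.0455). With a chip term it was -0.94 (adjusted p = 0.0357), within chip 1 it was -0.77 (adjusted p = 0.572) and within chip 2 it was -1.09 (adjusted p = 0.0765). The result lay close to the threshold and did not pass under 13 of 25 alternatives. These included leaving out replicate 1 or 2 of the supernatant, replicate 2 of cardiomyocyte media or replicate 1 or 2 of unused media, with an adjusted p of up to 0.246. Cardiomyocyte media against unused media gave 0.68 (SE 0.21), with no overlap between the arrays, and did not pass over all genes (limma adjusted p = 0.0763). It passed with median scaling, at 0.96 (adjusted p = 0.0412), and with array weights, at 0.92 (adjusted p = 0.00999). Supernatant against unused media gave -0.27 (95% confidence interval -0.79 to 0.26, limma adjusted p = 0.704).

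Fosl1 encodes Fra-1, a Fos relative without the strong activation domain of c-Fos that is known from motile and invasive cells (chr19:5447698-5455938). Its signal was 66.1 and 32.5 in supernatant, 44.4, 23.3 and 24.3 in cardiomyocyte media and 146, 135 and 183 in unused media. All arrays of unused media were above all arrays of both other groups, which overlapped with each other. The means were 49.3 ± 23.8 in supernatant (SD, n = 2), 30.7 ± 11.9 in cardiomyocyte media (n = 3) and 155 ± 25.1 in unused media (n = 3). Cardiomyocyte media against unused media gave a log2 fold change of -1.89 (SE 0.24, 95% confidence interval -2.43 to -1.36, limma adjusted p = 6.52e-04). The mean signal was 0.198 times that in unused media, where the fitted ratio was 0.270. The fitted value is on the scale of log2 of the signal plus 16, which shrinks the change of a low signal. The ratio of mean signals takes in the arrays of chip 2 and depends on the background subtracted. Without background correction the fitted change was -1.15. The arrays of chip 2 were lower than those of chip 1 within both treated groups, and unused media had no array on chip 2. With a chip term the change was -1.44 (adjusted p = 0.00147), and within chip 1 it was -1.44 (adjusted p = 0.0214). It passed under all 24 alternatives run, at -2.12 to -1.15. Supernatant against unused media gave -1.43 (SE 0.27, limma adjusted p = 0.0221), with -1.09 with that term (adjusted p = 0.0167) and -1.02 within chip 1 (adjusted p = 0.193). The call was lost when any array of the supernatant or of unused media was left out, with an adjusted p of up to 0.278. Fosl1 in supernatant against cardiomyocyte media gave 0.46 (95% confidence interval -0.13 to 1.06, limma adjusted p = 0.498).

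Egr1 encodes a zinc finger factor that binds GC-rich sites and is itself an immediate early gene under serum response factor. Its signal was 5981 and 5934 in supernatant, 8724, 9597 and 8661 in cardiomyocyte media and 6103, 4865 and 4498 in unused media. The arrays of cardiomyocyte media were above all others, and the supernatant lay within the range of unused media. The means were 5957 ± 33.0 in supernatant (SD, n = 2), 8994 ± 524 in cardiomyocyte media (n = 3) and 5155 ± 841 in unused media (n = 3). Cardiomyocyte media against unused media gave a log2 fold change of 0.81 (SE 0.17, 95% confidence interval 0.44 to 1.19, limma adjusted p = 0.0142). With a chip term it was 0.79 (adjusted p = 0.0468) and within chip 1 it was 0.76 (adjusted p = 0.243). It did not pass without replicate 2 or 3 of unused media or replicate 2 of cardiomyocyte media, with an adjusted p of up to 0.0666. Supernatant against cardiomyocyte media gave -0.59 (SE 0.19), with no overlap between the arrays, and did not pass over all genes (limma adjusted p = 0.126). It passed without background correction (adjusted p = 0.0390), with an offset of 50 (adjusted p = 0.0467) and with a trended, robust variance (adjusted p = 0.0258). Supernatant against unused media gave 0.22 (95% confidence interval -0.20 to 0.64, limma adjusted p = 0.692).

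Ier3 encodes a small early response protein that acts on cell survival and ERK signalling and is not a DNA-binding factor (chr17:35821713-35822911). Its signal was 510 and 722 in supernatant, 493, 687 and 617 in cardiomyocyte media and 884, 648 and 451 in unused media. The groups overlapped, and Ier3 passed in no comparison. The log2 fold change was -0.10 between cardiomyocyte and unused media (95% confidence interval -0.65 to 0.45), -0.07 between supernatant and unused media (-0.69 to 0.55) and 0.03 between supernatant and cardiomyocyte media (-0.58 to 0.66).

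**Figure D3:**
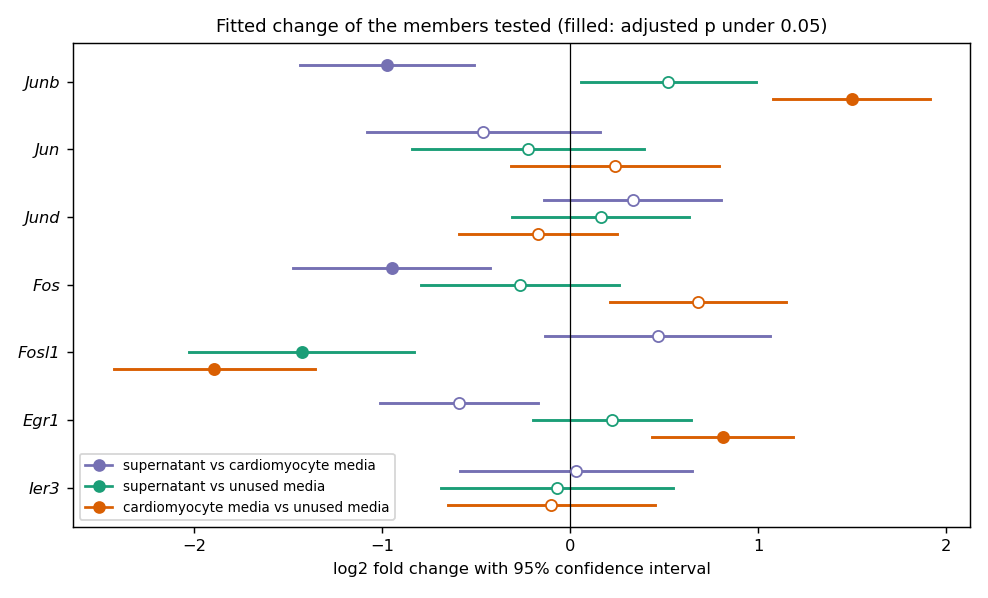
Log2 fold change of the 7 tested members with 95% confidence intervals, with 3 lines per gene for supernatant against cardiomyocyte media, supernatant against unused media and cardiomyocyte media against unused media. Filled points passed at an adjusted p under 0.05: Junb, Fosl1 and Egr1 in cardiomyocyte media against unused media, Fosl1 in supernatant against unused media, and Junb and Fos in supernatant against cardiomyocyte media.

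The members differed in the order of their groups. Junb ran from cardiomyocyte media over the supernatant to unused media, with the difference between supernatant and unused media short of the threshold. Fos ran from cardiomyocyte media over unused media to the supernatant, and only its end groups passed. Egr1 had the order of Junb, and only its end groups passed. Fosl1 was highest in unused media, and its levels in supernatant and cardiomyocyte media did not differ beyond their spread. The arrays of the groups did not overlap for 4 of 7 members between cardiomyocyte and unused media, where 28.6% of all tested genes did not overlap. For supernatant against unused media this was 2 of 7 members and 31.3% of all genes, and for supernatant against cardiomyocyte media 4 of 7 members and 32.4% of all genes. The median log2 fold change of the 7 members was 0.24 between cardiomyocyte and unused media, -0.07 between supernatant and unused media and -0.46 between supernatant and cardiomyocyte media, where the medians over all tested genes were -0.01, -0.00 and 0.02.

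**Figure D4:**
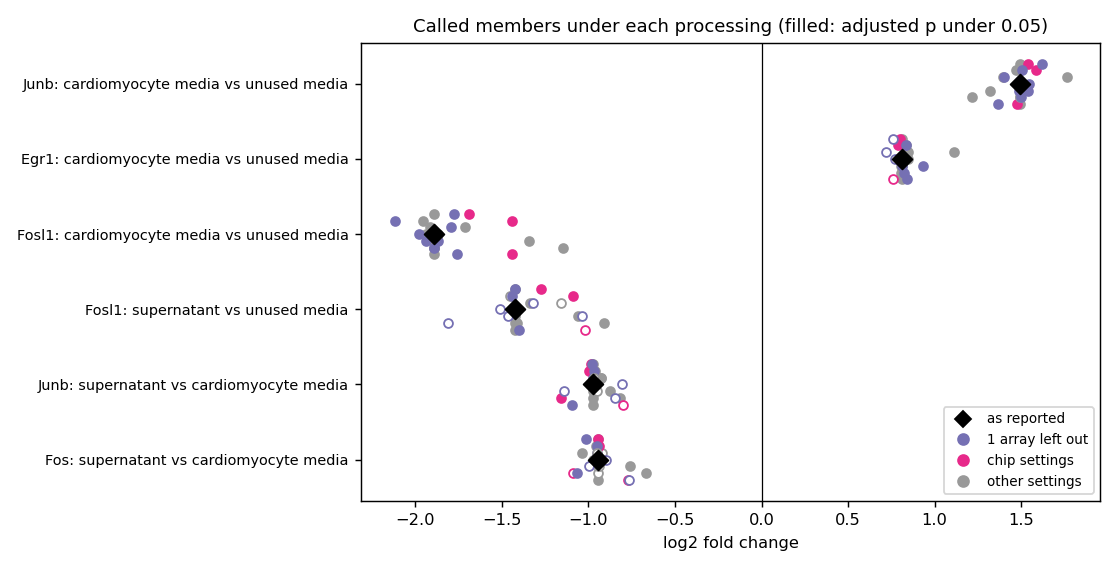
Log2 fold change of the 6 results that passed, as reported (diamonds) and under each alternative processing (circles for 1 array left out, chip settings and other settings). Open symbols did not pass at an adjusted p under 0.05. All symbols keep the sign of the reported value, and those of Junb and Fosl1 in cardiomyocyte media against unused media are all filled.

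Other genes of the pathway were read from lists, which were chosen with earlier results known. At an unadjusted p under 0.05, 25.1% of all tested genes were called between cardiomyocyte and unused media. This share was 11.9% for supernatant against unused media and 15.2% for supernatant against cardiomyocyte media. The shares after adjustment were given above. Among the other partners of AP-1 and related leucine zipper factors, 14 of 16 listed names were matched to a gene with a probe, and 9 were tested. Of these 9, 1 was Atf5, a different gene that a synonym match had put in place of the listed Atf7. Atf7 itself was not measured. In cardiomyocyte media 0 were higher and 1 was lower than in unused media (1 and 4 at an unadjusted p under 0.05). This was Cebpb, a regulator of inflammatory and fat cell genes, with mean signals of 2189 in cardiomyocyte media and 3890 in unused media (log2 fold change -0.84, limma adjusted p = 0.0286), and the call was lost with a chip term (-0.58, adjusted p = 0.151). In supernatant 0 of 9 passed in either direction against unused media, also at an unadjusted p under 0.05. Ddit3, the stress factor CHOP, was the 1 of 9 that was higher in supernatant than in cardiomyocyte media, with mean signals of 1383 in supernatant and 792 in cardiomyocyte media (0.79, adjusted p = 0.0459), where 0 were lower (3 and 0 before adjustment). The median of the 9 was -0.46 between cardiomyocyte and unused media, -0.03 between supernatant and unused media and 0.51 between supernatant and cardiomyocyte media. The values -0.46 and 0.51 are those of Atf5, so these medians depend on the replaced gene.

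Of the 56 other immediate early genes and their feedback regulators, 53 had a probe and 38 were tested. In cardiomyocyte media 4 were higher and 3 lower than in unused media, and 31 did not pass. Nfkbia, the inhibitor of NF-kappa B, had mean signals of 554 in cardiomyocyte media and 211 in unused media (log2 fold change 1.32, limma adjusted p = 0.00127). Dusp4, a phosphatase that turns off MAP kinases, had 82.3 in cardiomyocyte media and 28.3 in unused media (1.16, adjusted p = 0.00379). Egr2, a relative of Egr1, had 900 in cardiomyocyte media and 402 in unused media (1.13, adjusted p = 0.00497). Gadd45b, a stress gene of growth arrest, was lower, with 22.3 in cardiomyocyte media, where 2 of 3 arrays detected it, and 122 in unused media (-1.86, adjusted p = 1.34e-04). The other calls were Errfi1, which was higher, and Plk2 and Ccn2, which were lower, and all 3 were lost with a chip term (adjusted p of 0.0594, 0.0537 and 0.0726), where Tnfaip3 was gained (0.82, adjusted p = 0.0483).
In supernatant against unused media, 1 of the 38 was higher and 0 were lower (4 and 2 at an unadjusted p under 0.05). This was Gadd45a, a relative of Gadd45b, with 1423 in supernatant and 597 in unused media (1.24, adjusted p = 0.0369; 0.99 with a chip term, adjusted p = 0.0625). Against cardiomyocyte media 1 was higher and 3 were lower in supernatant (5 and 5 at an unadjusted p under 0.05). Dusp4 had 22.5 in supernatant and 82.3 in cardiomyocyte media (-1.35, adjusted p = 0.00402). Nfkbia had 263 in supernatant and 554 in cardiomyocyte media (-1.02, adjusted p = 0.0160). Tnfaip3, another brake on NF-kappa B, had 21.4 in supernatant and 50.1 in cardiomyocyte media (-0.83, adjusted p = 0.0478). Gadd45b was the gene that was higher, with 78.6 in supernatant and 22.3 in cardiomyocyte media, detected there on 2 of 3 arrays (1.30, adjusted p = 0.00418). In the chip fit, Klf2 (-0.94, adjusted p = 0.0410) was also lower and Sgk1 (0.69, adjusted p = 0.0494) also higher in supernatant. The medians of the list were -0.01, 0.08 and 0.01 in the comparisons of cardiomyocyte with unused media, supernatant with unused media and supernatant with cardiomyocyte media.

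Of 37 MAP kinases, kinases upstream of AP-1 and factors that degrade Jun, 29 had a probe and 24 were tested. In cardiomyocyte media 0 were higher and 1 was lower than in unused media (2 and 5 at an unadjusted p under 0.05). This was Fbxw7, which marks Jun for degradation, with 148 in cardiomyocyte media and 324 in unused media (log2 fold change -1.10, limma adjusted p = 0.0384), and it did not pass with a chip term (-0.50, adjusted p = 0.163). In the other 2 comparisons 0 of 24 passed with limma. When chip was a term, Mapk8, the kinase JNK1 (0.83, adjusted p = 0.0297), and Fbxw7 (0.69, adjusted p = 0.0333) were higher in supernatant than in cardiomyocyte media. At an unadjusted p under 0.05 there were 0 in supernatant against unused media, and 3 higher and 1 lower in supernatant than in cardiomyocyte media. The medians of the list were 0.04, 0.02 and 0.03.

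Of 38 genes known as targets of AP-1 or Egr1, 32 had a probe and 24 were tested. In cardiomyocyte media 5 were higher and 4 lower than in unused media (8 and 5 at an unadjusted p under 0.05). Plau, the urokinase protease, had mean signals of 1562 in cardiomyocyte media and 76.0 in unused media, where 2 of 3 arrays detected it (log2 fold change 4.41, limma adjusted p = 2.07e-04). Ccl2, a chemokine that draws monocytes, had 360 in cardiomyocyte media and 53.2 in unused media (2.45, adjusted p = 1.87e-05). Cdkn1a, the cell cycle inhibitor p21, was lower, with 320 in cardiomyocyte media and 1042 in unused media (-1.65, adjusted p = 1.04e-04). Hmox1, heme oxygenase, was lower, with 19.3 in cardiomyocyte media, where 2 of 3 arrays detected it, and 90.4 in unused media (-1.60, adjusted p = 0.00131). Vegfa, Tnc and Mmp9 were the other higher genes and Hbegf and Il11 the other lower ones, with Il11 detected on 2 of 3 arrays of cardiomyocyte media. All 9 passed with a chip term, and so did Thbs1, which was then also higher (0.72, adjusted p = 0.0418). The mean signals of Thbs1 were low, at 12.9 in cardiomyocyte media and 7.08 in unused media, within the range of the undetected Fosb. Without a chip term its change was 0.30 (limma adjusted p = 0.438), and the arrays of the groups overlapped.
In supernatant against unused media, 1 target was higher and 2 were lower (4 and 5 at an unadjusted p under 0.05). Plau had 444 in supernatant and 76.0 in unused media (2.63, adjusted p = 0.0312), which did not pass with a chip term (2.47, adjusted p = 0.0626). Ccnd1, cyclin D1, had 738 in supernatant and 1528 in unused media (-1.03, adjusted p = 0.0111), and Cdkn1a had 556 in supernatant and 1042 in unused media (-0.88, adjusted p = 0.0321). In the fit that included chip, Thbs1 (1.004, adjusted p = 0.0167) was also higher and Il11 (-0.97, adjusted p = 0.0247) also lower. Thbs1 was again low, with 22.3 in supernatant and 7.08 in unused media, and without chip its change was 0.69 (limma adjusted p = 0.308).
Between supernatant and cardiomyocyte media, 2 targets were higher in supernatant and 3 were lower (4 and 8 at an unadjusted p under 0.05). Ccl2 had 76.4 in supernatant and 360 in cardiomyocyte media (-2.04, adjusted p = 2.69e-04), and Ccnd1 had 738 in supernatant and 1542 in cardiomyocyte media (-1.05, adjusted p = 0.00416). Hmox1 had 58.9 in supernatant and 19.3 in cardiomyocyte media (1.10, adjusted p = 0.0295), and Cdkn1a had 556 in supernatant and 320 in cardiomyocyte media (0.77, adjusted p = 0.0356). Vegfa was the third lower gene. Once chip was included, Mmp9 (-0.88, adjusted p = 0.0404) was also lower and Il11 (0.75, adjusted p = 0.0241) also higher in supernatant. The medians of the list were 0.20 between cardiomyocyte and unused media, 0.08 between supernatant and unused media and -0.09 between supernatant and cardiomyocyte media. Targets that passed thus lay on both sides of 0 in all 3 comparisons.

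**Figure D5:**
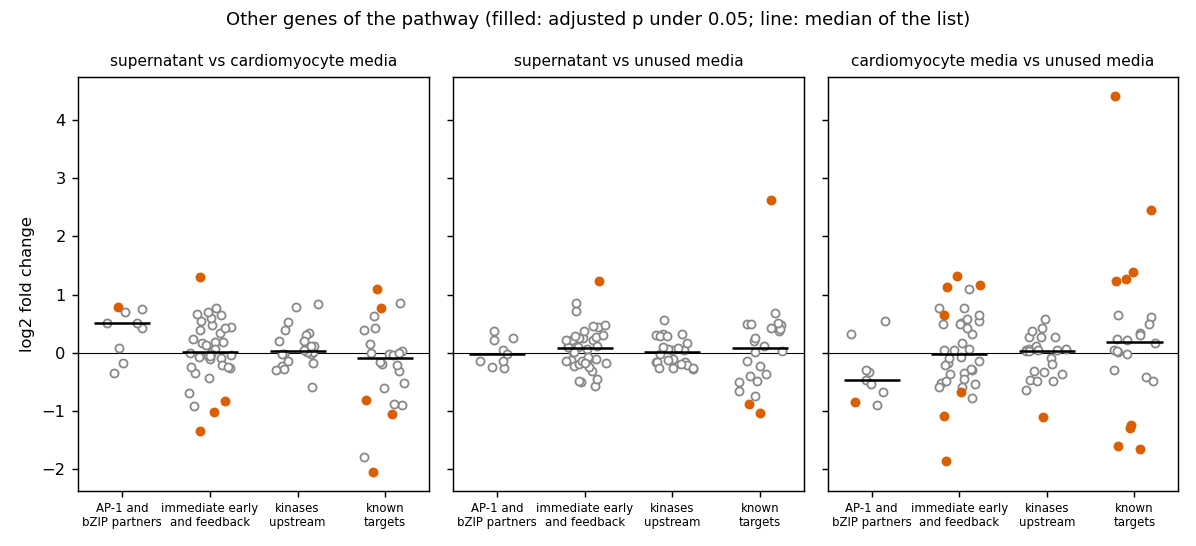
Log2 fold change of each tested gene of the 4 pathway lists (9 partners, 38 immediate early and feedback genes, 24 kinases and 24 targets), with panels for supernatant against cardiomyocyte media, supernatant against unused media and cardiomyocyte media against unused media. The 9 partners include Atf5 in place of the listed Atf7. Filled points passed at an adjusted p under 0.05 and lines are the medians of the lists. Most points are open, and the highest filled point, at 4.41, is Plau in cardiomyocyte media against unused media.

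As a description, the genes whose log2 values ran closest to those of each called member were found by Pearson correlation over the 8 arrays, which share their chips and groups. Closest to Junb were Zhx2 (r = 0.992, detected on 5 of 8 arrays), Mtch1 (0.984) and Nfkbia (0.982). Mean signals of Nfkbia were 263 in supernatant, 554 in cardiomyocyte media and 211 in unused media, the order seen for Junb. The genes named here were picked by correlation, so sharing a member's order of groups is not a separate result. Closest to Fos were Lrrc75a (0.987), BC052040 (0.974) and Hps5 (0.966). Closest to Egr1 were Smg6 (0.990), Fam20a (0.989) and Mmp9 (0.989), a matrix protease with mean signals of 100.4 in supernatant, 199 in cardiomyocyte media and 75.7 in unused media. Closest to Fosl1 were Lkaaear1 (0.985), Sbsn (0.983) and Lias (0.981), of which Lkaaear1 was detected on 3 of 8 arrays and Sbsn on 6 of 8.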

How the data were processed

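For total RNA of NIH 3T3 cells, 8 bead arrays of the type Illumina MouseRef-8 were used, each 1 replicate of the group its label gives. Per the submitters' processing notes BeadStudio 3.3 was used. From it the authors deposited, for every probe, an unnormalized mean intensity on a linear scale, a detection p-value, the count of beads and the bead standard error. Their deposited table of background-subtracted, normalized intensities served only as an alternative. In R 4.3.3 with limma 3.58.1, background was corrected by the normexp model (offset 16), followed by quantile normalization and log2 transformation. Printed signals are linear with the offset taken off. Of 25697 probes, 23978 had 1 gene name. A probe needed a detection p-value under 0.05 on 2 or more arrays, and the brightest such probe stood for its gene. All 8 arrays entered the linear model as 3 groups, and p-values were adjusted by Benjamini-Hochberg over 8885 genes. A gene passed at an adjusted p under 0.05. Called list genes were named by smallest p, at most 4 per list and comparison, and others, chosen after their values were seen, are named to complete a count or because a chip term changed their call. Motifs were counted in RefSeq windows of GRCm38.p6. The members and lists were chosen with earlier results of these data known. The fit was tested on simulated data. The alternatives were other background, normalization, filter, probe and variance settings, weighted arrays, fits to only the groups compared, terms for chip or replicate number, chip 1 alone and each array left out. Chip 2 alone was added after the results were seen. The paper's text names the series of these arrays as that of another experiment, and the sample labels were followed.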

Additional observations from a re-analysis of the deposited data

Results flagged for a closer look

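Against unused media, the changes with supernatant and with cardiomyocyte media differed for Junb and Fos, by the test of the difference itself. For Junb the log2 fold change was 0.52 in supernatant and 1.496 in cardiomyocyte media, a difference of -0.97 (SE 0.21, limma adjusted p = 0.0218). For Fos it was -0.27 in supernatant and 0.68 in cardiomyocyte media, a difference of -0.95 (SE 0.24, limma adjusted p = 0.0455). Signals were lower in 2 of 2 arrays of supernatant than in all 3 of cardiomyocyte media for both genes. Each value rests on 2 arrays of supernatant, and neither passed without either of them (adjusted p of up to 0.246).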

How the results depend on the processing

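No result of the members that passed changed sign under an alternative. Some results that had not passed changed sign and did not pass. In cardiomyocyte media against unused media, Ier3 was 0.18 with median scaling and -0.34 to 0.13 with 1 array left out. In supernatant against unused media, median scaling gave Fos 0.037, Jun 0.092 and Ier3 0.26, array weights gave Jun 0.019, and leaving out 1 array gave Jun -0.46 to 0.066 and Ier3 -0.31 to 0.18. In supernatant against cardiomyocyte media, Ier3 was -0.054 with array weights, -0.075 with replicate number as a block and -0.21 to 0.28 with 1 array left out. Called members were 3 in cardiomyocyte media against unused media, 4 with median scaling and with array weights, and 2 to 3 with any single array left out. On chip 1 alone Egr1 was no longer among them. In supernatant against unused media the 1 call became 0 with median scaling, the authors' normalized values, no detection filter and chip 1 only, and 0 to 1 with an array left out. In supernatant against cardiomyocyte media the 2 calls became 0 with median scaling, chip 1 only and the compared groups only, 1 with the authors' normalized values, no detection filter, every probe tested and chip 2 only, and 0 to 2 with an array left out. With replicate number as a block, 3, 1 and 0 members were called in the same order of comparisons, with Junb at -0.95 (limma adjusted p = 0.0551) and Fos at -0.94 (adjusted p = 0.108) in supernatant against cardiomyocyte media. Arrays of unused and cardiomyocyte media with the same number showed no sign of pairing. Their deviations from the group means had correlations of -0.18, -0.09 and -0.16, and of these pairs only replicate 1 shared a chip. Same-numbered arrays of supernatant and cardiomyocyte media, at 0.71 and 0.49, shared a chip. Replicate 2 of the supernatant and replicate 3 of cardiomyocyte media, which shared a chip but not a number, had a correlation of 0.46. The parts of pairing and chip in these values were not tested. The deviations of the 2 arrays of supernatant mirror each other, so those values are not independent. Median scaling moved the median of all genes by 0.21 in cardiomyocyte media and 0.26 in supernatant against unused media, and turned the higher and lower calls over all genes into 369 and 111 (from 358 and 391) into 53 and 10 (from 65 and 129) and into 97 and 161 in supernatant against cardiomyocyte media (from 156 and 278). Relative to that shift the signs of the passing members held. Over all genes, 749, 194 and 434 calls became 496, 207 and 610 in the fit with a chip term, and they became 187, 1 and 49 on chip 1 alone, where supernatant and cardiomyocyte media have 1 array each. With 1 array left out these counts ranged over 374 to 1425, 0 to 238 and 160 to 480. Chip 2 alone gave 281 calls in supernatant against cardiomyocyte media. Array weights gave 1622 calls in cardiomyocyte media against unused media, and the replicate block 97 in supernatant against unused media. The causes were not tested. The number of arrays limits the precision, most of all for the supernatant, and Fosl1 and Jund lay close to background.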
